A study of Mus musculus with 10 samples.

Results

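The serpins, the superfamily of serine protease inhibitors, were followed in lung RNA of BALB/c mice given IL-33, an epithelial alarmin cytokine, through the nose. Members were chosen by name alone: every gene whose Ensembl identifier maps to a symbol beginning with Serpin, of any clade, gave 68 genes of the 53465 in the count files. The libraries came from whole lung of 5 untreated control mice and of 5 mice that received 1 µg of IL-33 in 35 µL intranasally on each of 5 days, with lungs taken 24 hours after the last dose. All 10 mice were of the same strain, and no further allele, age or sex was read from the labels. The sources used here do not say if control mice were given vehicle, so instillation and IL-33 cannot be told apart. The family itself was selected on earlier results of these same libraries, the fold changes of IL-33 over control, so its counts and changes are given as a description and support nothing beyond it.

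A typical inhibitory serpin presents an exposed reactive centre loop as bait. When the target protease cuts the loop, the cut end inserts into the body of the serpin and the protease is carried across and held in a distorted, inactive complex. The letters of that loop largely set which protease is caught, and some members no longer inhibit and act instead as hormone carriers or as chaperones. Clade A holds the secreted relatives of alpha1-antitrypsin and alpha1-antichymotrypsin, clade B the mostly intracellular serpins of leukocytes and epithelia, and the other clades the inhibitors of clotting, fibrinolysis and complement. In the lung the family is best known for keeping neutrophil elastase from digesting the alveolar wall.

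Levels are read counts scaled to library size with edgeR's normalization factors (CPM) and are given as mean ± SD of 5 libraries per group. A log2 fold change is IL-33 over control with its standard error, and a gene is called higher or lower where edgeR's quasi-likelihood test over all tested genes gave an adjusted p under 0.05. Of the 68 members, 27 had enough reads to be tested, 41 were not tested, and 14 of those had no read in any library. Members such as Serpina11, Serpina10, Serpina3m and Serpinb2 passed the filter on low counts only through the IL-33 libraries. Of the 27 tested members, 17 were called higher and 6 lower, and 4 were not called. Over all 15695 tested genes 69.9% were called, 35.1% higher and 34.8% lower. The 5 control and 5 IL-33 values did not overlap in 19 of the 27, where 56.5% of all tested genes did not overlap. The median log2 fold change of the 27 was 0.80, and that of all tested genes was -0.01. A change of at least 2-fold in either direction was fitted for 48.1% of the members and for 23.4% of all tested genes. The 13 called members past 2-fold were all higher, while over all genes 2278 were higher and 1379 lower past that size.

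**Figure D1:**
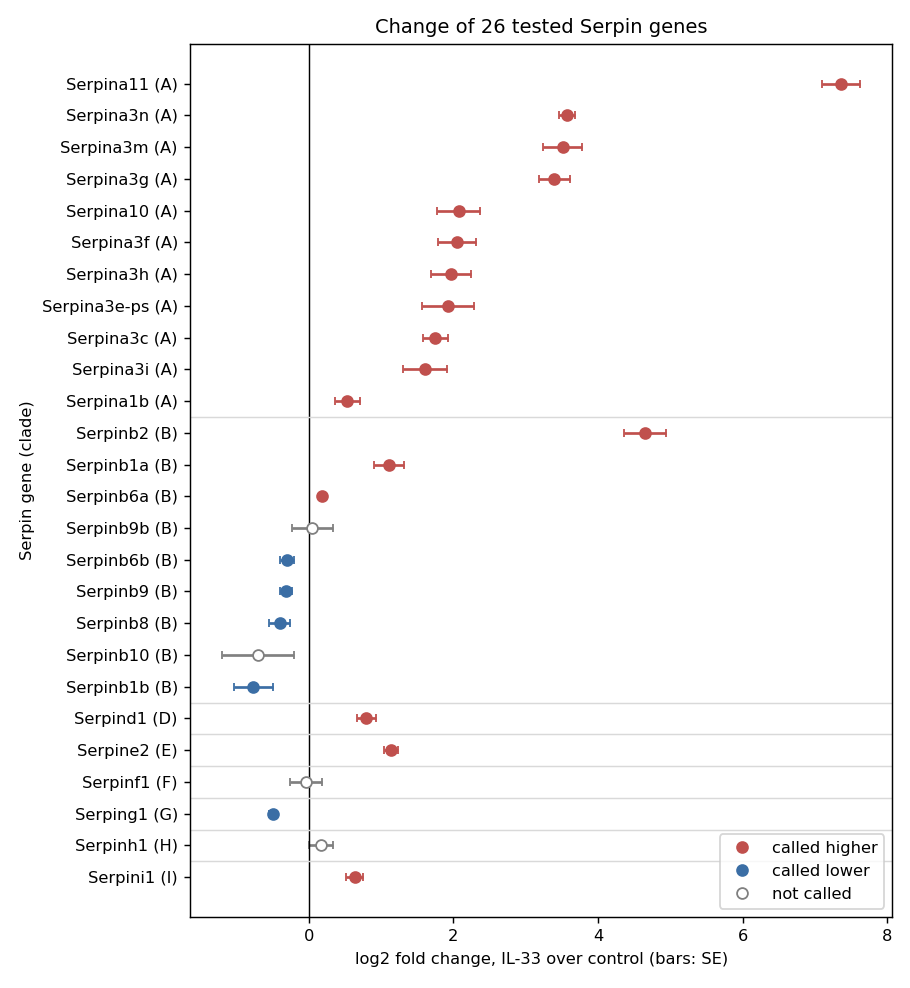
Log2 fold change (IL-33 over control, horizontal axis, bars: SE, n = 5 libraries per group) of 26 tested Serpin genes, ordered by clade. All 11 tested clade A genes lie to the right of 0, while clade B holds 3 called higher and 4 called lower; the value of Serpina11 has no control read behind it and depends on the fit's prior count.

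The tested members of clade A moved in 1 direction and those of clade B in both. Serpina7 of clade A, which was not tested, had 45 control and 18 IL-33 reads. All 11 tested members of clade A were called higher. Of these, Serpina3m, Serpina10 and Serpina11 passed the low-count filter only through IL-33, and genes that scarce in controls could be tested only where they rose. The summed level of the 29 clade A genes rose from 123.9 ± 18.8 to 899.6 ± 142.1 CPM (SD, n = 5), a ratio of 7.26. In clade B, 3 tested members were higher, 4 were lower and 2 were not called. The summed level of its 28 genes was 414.9 ± 13.9 CPM in controls and 409.0 ± 21.8 CPM with IL-33. The summed level of all 68 genes was 1518 ± 72.0 CPM in controls and 2289 ± 115.1 CPM with IL-33, a ratio of 1.51. Clades D and I were each represented by 1 tested gene called higher, clade G by 1 called lower, and clades F and H by 1 each that was not called. In clade E Serpine2 was called higher, and Serpinc1 of clade C was not tested.

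The clade A genes lie in 1 block, apart from Serpina7 on the X chromosome. The block holds 28 genes in 0.7995 Mb of mouse chromosome 12 (GRCm38, chr12:103614786-104414329). Its distal part, chr12:104112724-104414329, holds the 14 Serpina3 genes, a rodent expansion of the gene that encodes alpha1-antichymotrypsin, an acute-phase inhibitor. The reactive loops are shown for 6 tested coding copies, because the loop is what sets the target of each inhibitor whose RNA rose. Each line below is the coding strand of a GENCODE M21 transcript of the reference mouse genome, not of these BALB/c libraries. Lower case at the 5′ end gives the hinge codons, capitals the variable loop codons, and lower case at the 3′ end the conserved codons that follow.

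Serpina3n: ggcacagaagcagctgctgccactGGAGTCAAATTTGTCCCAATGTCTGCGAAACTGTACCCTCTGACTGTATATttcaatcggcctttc
Serpina3g: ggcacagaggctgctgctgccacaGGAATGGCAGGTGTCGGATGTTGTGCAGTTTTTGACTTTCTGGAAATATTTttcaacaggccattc
Serpina3m: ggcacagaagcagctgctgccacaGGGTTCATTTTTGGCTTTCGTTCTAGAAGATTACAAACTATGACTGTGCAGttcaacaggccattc
Serpina3f: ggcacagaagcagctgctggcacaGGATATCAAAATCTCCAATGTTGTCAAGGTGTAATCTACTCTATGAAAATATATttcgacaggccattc
Serpina3i: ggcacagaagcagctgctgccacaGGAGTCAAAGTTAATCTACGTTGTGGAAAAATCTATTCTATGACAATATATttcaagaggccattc
Serpina3c: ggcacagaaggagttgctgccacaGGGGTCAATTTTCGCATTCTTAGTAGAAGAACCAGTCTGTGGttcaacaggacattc

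These stretches lie in the last exon of their transcripts, on the plus strand at chr12:104413448-104413537 for Serpina3n, chr12:104241072-104241161 for Serpina3g and chr12:104393769-104393858 for Serpina3m. Those of Serpina3f and Serpina3i lie on the plus strand at chr12:104220245-104220337 and chr12:104268480-104268569, and that of Serpina3c on the minus strand at chr12:104147307-104147387. In the capitals, Serpina3g was 54.7% identical to Serpina3n, while in the 150 coding bases just before the stretch it was 94.7% identical. Serpina3m had 55.8% and 86.7%, and Serpina3c 56.9% and 86.0%. Serpina3f had 63.2% and 91.3%, and Serpina3i 64.7% and 90.0%. In each of the 5 pairs the identity was lower in the loop than beside it.

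Serpina3n, the copy usually taken as the mouse counterpart of alpha1-antichymotrypsin (ENSMUSG00000021091, chr12:104406729-104414329), carried the most reads of the family after IL-33. It stood at 33.1, 40.04, 41.9, 41.0 and 33.0 CPM in control libraries 1 to 5, and at 506.8, 500.5, 407.0, 373.7 and 451.4 CPM in IL-33 libraries 1 to 5. Every IL-33 library lay far above every control, and the log2 fold change was 3.57 ± 0.11 (SE), from a mean of 37.8 ± 4.38 to 447.9 ± 57.9 CPM. Serpina3g, an intracellular copy known as an inhibitor of lysosomal cathepsins in leukocytes (ENSMUSG00000041481, chr12:104236245-104241939), moved almost as much. Its controls held 31.4, 18.4, 17.3, 24.3 and 17.7 CPM and its IL-33 libraries 286.9, 218.4, 248.9, 163.7 and 242.5 CPM, a log2 fold change of 3.40 ± 0.21. Serpina3m (ENSMUSG00000079012, chr12:104338486-104394257) was scarce in controls, at 0.848, 1.64, 0.563, 1.05 and 0.949 CPM. It reached 13.6, 13.2, 8.95, 8.41 and 13.4 CPM with IL-33, a log2 fold change of 3.51 ± 0.27, and its annotated span overlaps that of Serpina3k. For these 3 genes no control value came near an IL-33 value.

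The other 5 tested Serpina3 genes rose by less. Serpina3f (ENSMUSG00000066363) went from 7.98, 4.92, 5.40, 6.48 and 4.17 CPM in controls to 35.1, 17.1, 19.2, 18.8 and 30.8 CPM with IL-33, a log2 fold change of 2.05 ± 0.26. Serpina3h (ENSMUSG00000041449), annotated as a transcribed unprocessed pseudogene, went from 42.1, 20.5, 26.8, 21.7 and 19.2 CPM to 150.9, 84.7, 83.7, 79.5 and 114.4 CPM, a log2 fold change of 1.97 ± 0.27. In both genes IL-33 libraries 1 and 5 stood above the other three, and no IL-33 value reached down to a control. Serpina3e-ps (ENSMUSG00000091553), an unprocessed pseudogene, held 4.80, 1.31, 4.39, 2.54 and 3.89 CPM in controls and 16.9, 12.8, 11.02, 9.97 and 14.7 CPM with IL-33, a log2 fold change of 1.93 ± 0.36. Serpina3c (ENSMUSG00000066361) held 6.15, 4.92, 3.60, 4.29 and 3.89 CPM and then 19.5, 12.1, 15.0, 16.1 and 15.0 CPM, a log2 fold change of 1.75 ± 0.17. Serpina3i (ENSMUSG00000079014) held 14.1, 8.10, 10.7, 9.10 and 6.64 CPM and then 46.8, 18.8, 22.8, 22.6 and 38.0 CPM, a log2 fold change of 1.61 ± 0.31. These 3 genes were likewise apart in all 10 libraries.

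The 6 Serpina3 genes that were not tested had few or no reads. Serpina3k had 5 control and 13 IL-33 reads, Serpina3a had 2 and 5, and Serpina3d-ps had 0 and 1. Serpina3b, Serpina3j and Serpina3l-ps had no read. The rise was thus measured in 8 of 14 copies, and at this depth nothing could be read for the other 6.

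**Figure D2:**
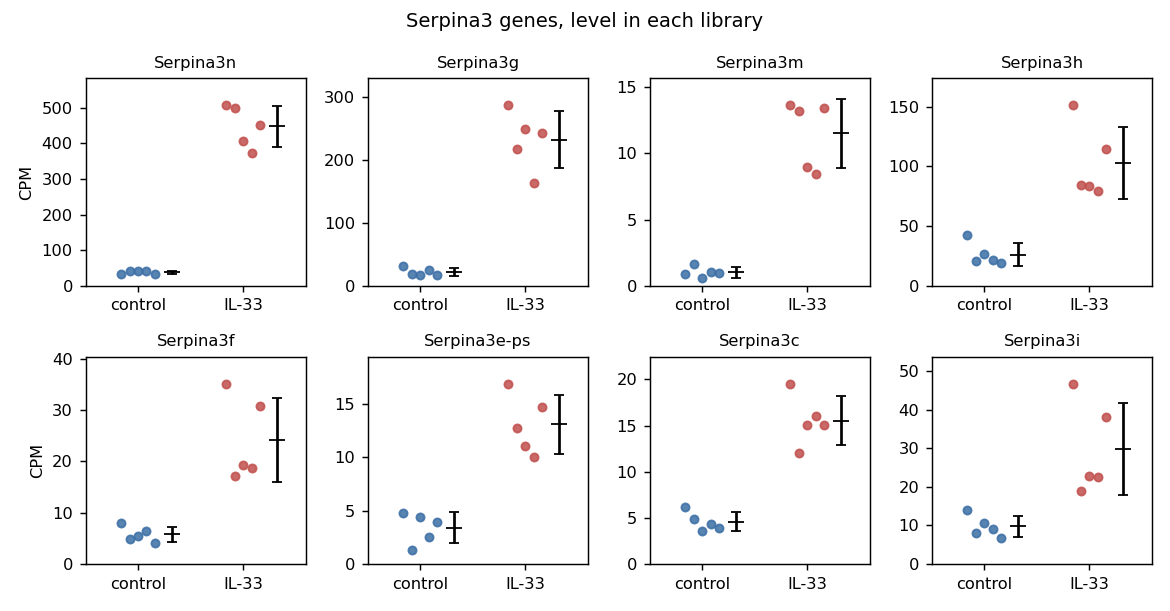
Level in CPM (vertical axes, each starting at 0) of the 8 tested Serpina3 genes in the 5 control (blue) and 5 IL-33 (red) libraries, with mean and SD beside each group. IL-33 library 1 is the highest of its group in all 8 genes, and no control value reaches an IL-33 value.

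The 8 genes did not vary independently among mice. IL-33 library 1 was the highest of its group for all 8, and the lowest was library 4 for 5 genes and library 2 for 3 genes. Among controls, library 1 was the highest for 6 of the 8, the exceptions being Serpina3m and Serpina3n. Leaving out single libraries moved the log2 fold change of Serpina3n between 3.51 and 3.63 and that of Serpina3i between 1.40 and 1.78. The genes lie side by side and share sequence, so they are not separate replicates of the response.

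The makeup of the Serpina3 signal also shifted. Per kilobase of exon, Serpina3n gave 31.8 ± 6.36% of the summed signal of the 8 genes in controls and 48.9 ± 4.06% with IL-33. Its share was 20.7% in control library 1, 33.3% to 37.0% in the other controls and 44.3% to 54.5% with IL-33. The share of Serpina3g was 17.4 ± 2.44% and then 24.6 ± 2.46%, again without overlap (13.7% to 19.9% against 22.0% to 28.6%). Serpina3h, the pseudogene, held 30.1 ± 4.83% in controls, close to Serpina3n, and 15.8 ± 2.28% with IL-33. Serpina3i went from 7.28% to 2.94%, Serpina3f from 4.24% to 2.33% and Serpina3c from 3.51% to 1.59%. In control library 1, Serpina3h with 38.0% exceeded Serpina3n, and it did so in no other library.

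**Figure D3:**
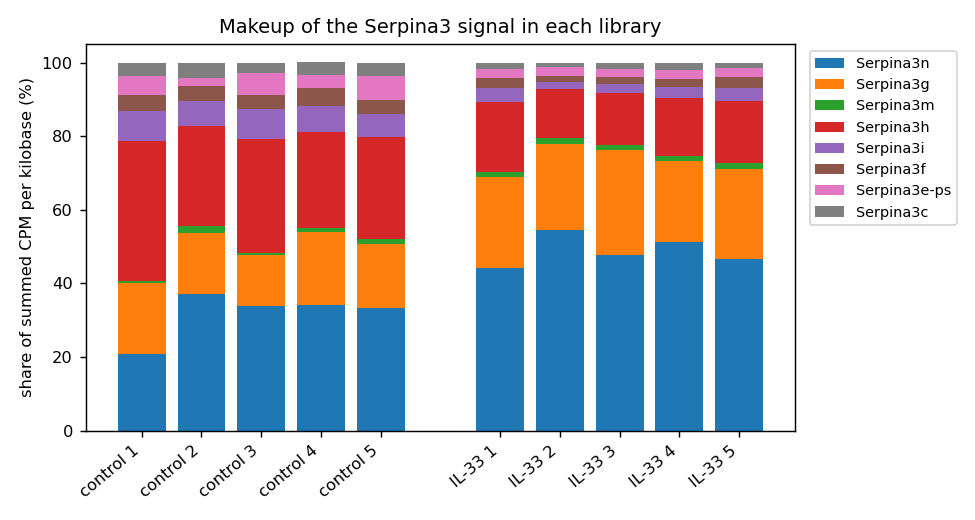
Share (%, vertical axis) of each of the 8 tested Serpina3 genes in their summed CPM per kilobase, in each library. Serpina3n and Serpina3g take a larger share in every IL-33 library, and Serpina3h a smaller one, than in any control.

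Because the copies are alike, a read from a stretch they share may align to several places and be left out of the counts. A read may also be credited to the wrong copy. Levels and shares per kilobase were not corrected for either. The share of a gene's 75-base stretches that also occur in another gene was 1.46% for Serpina3n, 0.327% for Serpina3c, 5.33% for Serpina3f and 6.62% for Serpina3i. It was 7.69% for Serpina3g, 9.65% for Serpina3m (with Serpina3k), 11% for Serpina3h and 11.1% for Serpina3e-ps. The values of Serpina3m, Serpina3h and Serpina3e-ps are the least certain for that reason. The read length is not stated, and with 50-base stretches the shares were larger. They were then 4.25% for Serpina3c, 6.9% for Serpina3n, 10.6% for Serpina3f, 15.5% for Serpina3g and 15.9% for Serpina3i. Serpina3m had 19.1%, Serpina3e-ps 21.6% and Serpina3h 21.9%. Reads aligned to several places, which the counts leave out, made up 15.0% to 16.2% of records in controls and 19.97% to 22.76% with IL-33, and their part in these values was not tested. Shorter genes tended to have higher fold changes across the whole table (Spearman rho -0.33 over 15680 genes, a description across genes, which are not independent). With offsets that remove each library's trend on length and GC content, all 8 genes stayed called, with Serpina3n at 3.12, Serpina3g at 2.96, Serpina3h at 1.34 and Serpina3e-ps at 1.22.

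Whole-lung RNA cannot tell more cells of a type from more RNA per cell, nor fewer cells from less. The 8 neutrophil markers examined were all called higher, with a summed level of 63.5 to 249.5 CPM in controls and 890.6 to 1016 CPM with IL-33. Ltf had the highest mean of the 8 in both groups. It ran from 9.80 to 184.4 CPM in controls and from 239.4 to 401.7 CPM with IL-33. In control libraries 2 and 5 Ltf held 144.2 and 184.4 CPM and S100a8 11.92 and 17.84 CPM. In control libraries 1 and 3 Ltf held 39.14 and 24.43 CPM and S100a8 42.04 and 45.15 CPM. Ltf and S100a8 thus did not vary together among controls. The 6 plasma and B cell markers were also all higher, from 45.4 to 190.8 CPM in controls to 313.4 to 877.6 CPM. The liver is the main source of circulating clade A serpins, and the hepatocyte markers together held 14.0 to 30.0 CPM in controls and 5.63 to 18.1 CPM with IL-33. Of those 8 markers 5 were too scarce to be tested, and of the other three Ahsg was called higher (0.733 ± 0.643 and 2.45 ± 0.655 CPM), Cyp2e1 lower (15.7 ± 7.46 and 6.82 ± 4.90 CPM) and Hpx was not called. Cyp2e1 made up most of the sum, and albumin (Alb) held 0.495 to 6.19 CPM in controls and 0 to 0.520 CPM with IL-33. The part of the other marker lists in the Serpina3 values was not tested.

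The stretches upstream of these genes are also related, and 100 bases of each are shown because the 5 tested copies with a RefSeq promoter rose together. They come from RefSeq's GRCm38.p6 promoter sequences, which cover 250 bases before and 50 after each gene's start, and were found for 53 of the 68 members and 20 of the 27 tested. Serpina3b, which had no read, is shown beside them. Capitals mark matches on either strand to TTCNNNGAA, the letters that STAT factors bind, or to GGGNNTTTC, the first 9 letters of a form of the NF-kappaB motif.

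Serpina3n: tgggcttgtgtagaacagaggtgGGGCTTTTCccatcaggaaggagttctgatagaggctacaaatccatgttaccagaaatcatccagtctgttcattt
Serpina3g: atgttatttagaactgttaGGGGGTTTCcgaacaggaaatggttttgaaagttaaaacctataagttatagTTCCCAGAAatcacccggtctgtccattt
Serpina3f: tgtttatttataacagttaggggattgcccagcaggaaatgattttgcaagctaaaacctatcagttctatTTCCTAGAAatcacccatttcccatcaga
Serpina3i: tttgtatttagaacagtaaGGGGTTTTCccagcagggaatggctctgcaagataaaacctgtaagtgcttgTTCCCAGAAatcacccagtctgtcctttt
Serpina3c: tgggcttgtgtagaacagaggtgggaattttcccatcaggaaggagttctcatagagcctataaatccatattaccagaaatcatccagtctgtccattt
Serpina3b: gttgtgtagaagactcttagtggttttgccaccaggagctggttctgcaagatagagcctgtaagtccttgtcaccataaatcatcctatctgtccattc

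The stretches are chr12:104406514-104406613 for Serpina3n, chr12:104236043-104236142 for Serpina3g, chr12:104214352-104214451 for Serpina3f and chr12:104262949-104263048 for Serpina3i, all on the plus strand. That of Serpina3c is chr12:104153964-104154063 on the minus strand, and that of Serpina3b is chr12:104127802-104127901 on the plus strand. TTCNNNGAA occurred in the 300-base promoters of Serpina3f, Serpina3g and Serpina3i, 3 of the 8 Serpina3 genes with an entry, and in 9.55% of the promoters of 27025 genes. GGGNNTTTC occurred in Serpina3g, Serpina3i and Serpina3n, and in 5.06% of all. The matches are set beside the size of the change, and a link between them was not tested. Serpina3n, with the largest log2 fold change of the tested Serpina3 genes, held the NF-kappaB letters and no match to the STAT letters. Serpina3i, with the smallest (1.61), held both, as did Serpina3g (3.40). Serpina3f (2.05) held the STAT letters alone, and Serpina3c (1.75) held neither exact string. Where Serpina3n has GGGCTTTTC, Serpina3c reads GGAATTTTC, and looser forms of the motifs were not searched. The longest run that all 6 promoters share lies downstream of the stretches shown, the 12 bases CATTTCCTAAGA. It begins 37 to 65 bases before the start in 5 genes and 33 bases after it in Serpina3g, and it occurred in 11 of the 27025 promoters (0.0407%), these 6 included. The run was sought as one held by all 6, so its presence in them was fixed by the search. Of the 8 Serpina3 genes with an entry, only these 6 held it. The motifs were chosen after these promoters had been seen, a match is not a bound site, and Serpina3b holds the shared run without a read in any library.

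Of the 14 other genes of the chromosome 12 block 3 were tested, and all 3 were called higher. Serpina11 (ENSMUSG00000063232, chr12:103980243-103989957) had no read in any of the 5 controls and 97 reads in the IL-33 libraries. Against a floor of 3 reads over the control group it was at least 33.1-fold higher, and its IL-33 libraries held 1.68, 2.76, 2.98, 1.40 and 1.11 CPM. Of its 75-base stretches, 34.2% also belong to the overlapping gene Gm28577. Setting Serpina11 at its bound leaves the medians of the family and of clade A where they were, since it stays the highest value. Serpina10, the protein Z-dependent inhibitor of factor Xa (ENSMUSG00000061947, chr12:103614786-103631444), held 0.848, 1.64, 0.675, 0.525 and 0.949 CPM in controls and 3.75, 5.28, 4.54, 3.43 and 2.67 CPM with IL-33. Its groups did not overlap, and its log2 fold change was 2.07 ± 0.30.

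Of the alpha1-antitrypsin genes only Serpina1b had enough reads to be tested, and it was called higher. Serpina1b (ENSMUSG00000071178, chr12:103728156-103830373) is 1 of 6 genes of the reference mouse genome named after this inhibitor of neutrophil elastase. It held 9.19, 9.30, 10.6, 10.2 and 9.20 CPM in controls and 16.6, 18.0, 15.0, 11.3 and 9.88 CPM with IL-33. Libraries 1 to 4 of the IL-33 group lay above all controls and library 5 lay within them. Its log2 fold change of 0.54 ± 0.17 was called, but with the length and GC correction it was 0.17 (adjusted p = 0.326 in edgeR's quasi-likelihood test), and 19.0% of its 75-base stretches occur in another gene, mostly the other copies. Serpina1d and Serpina1e had 40 control and 35 IL-33 reads each, Serpina1a had 7 and 8, Serpina1c had 3 and 9, and Serpina1f had none. All 6 copies together gave 11.5 ± 1.35 CPM in controls and 15.9 ± 3.58 CPM with IL-33.

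Further clade A genes were near the limit of detection. They include the hormone carriers Serpina6 (corticosteroid-binding globulin, 3 control and 2 IL-33 reads) and Serpina7 (thyroxine-binding globulin, 45 and 18 reads). Serpina9 had 18 and 14 reads, Serpina12 had 2 and 3, Serpina4-ps1 had 1 and 2, and Serpina5 and Serpina16 had 0 and 1 each.

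**Figure D4:**
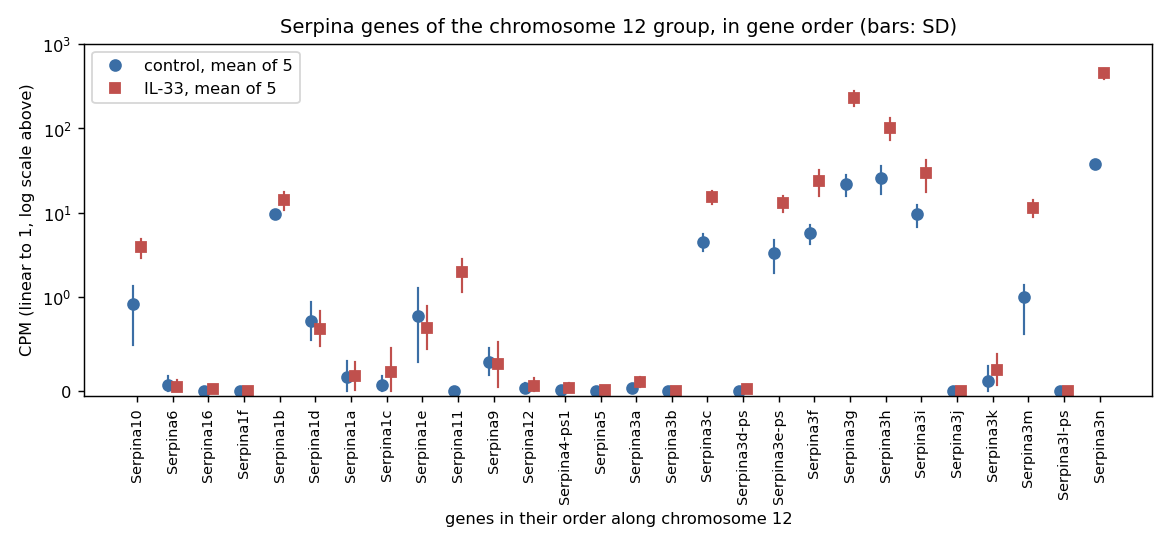
Mean CPM ± SD (vertical axis, linear to 1 and logarithmic above) of the 28 Serpina genes on chromosome 12 in their order along the chromosome, control (blue) and IL-33 (red), n = 5 libraries each. The genes with high levels in both groups lie mainly in the Serpina3 part at the right, and genes close to 0 lie between them.

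Clade B is spread over a chromosome 1 group of 12 genes (chr1:106861173-107610484) and a chromosome 13 group of 16 genes (chr13:32842092-34002794). In the chromosome 1 group 3 genes were tested, and each went its own way. Serpinb2, an inhibitor of urokinase made by monocytes and macrophages under stimulation (ENSMUSG00000062345, chr1:107511423-107535478), had 8 reads in all controls and 204 with IL-33. Its controls held 0.141, 0.328, 0.113, 0.0875 and 0.0949 CPM and its IL-33 libraries 3.65, 4.37, 6.22, 2.80 and 3.34 CPM. The groups were far apart, and the log2 fold change of 4.65 ± 0.29 was the largest of a gene with control reads in the family. That standard error is too small, because 0.1 CPM was added to each value and the control mean was only 0.153 CPM. Serpinb10, which overlaps Serpinb2 and is annotated as a polymorphic pseudogene (ENSMUSG00000092572), held 1.76 ± 1.44 CPM in controls and 1.10 ± 0.504 CPM with IL-33 and was not called. Its log2 fold change of -0.70 ± 0.50 rested on control library 1 with 4.24 CPM, and without that library it was 0.0004. Serpinb8, an intracellular serpin able to inhibit furin-type proteases (ENSMUSG00000026315), went from 16.5 ± 1.99 to 12.4 ± 2.37 CPM, a called log2 fold change of -0.40 ± 0.14 with overlapping groups.

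Of the 9 chromosome 1 genes that were not tested, Serpinb11 had 2 control and 31 IL-33 reads. The ratio was 15.9 with an exact 95% interval of 4.04 to 137.0, which covers counting error only, and it was 23.5 without control library 1 and 26.4 without control library 2. The IL-33 reads fell in 4 of the 5 libraries, with none in library 1. Serpinb5, the epithelial serpin maspin, had 1 and 9 reads, Serpinb12 had 11 and 9, Serpinb7 had 5 and 0 and Serpinb13 had 1 and 0. Serpinb3a, Serpinb3b, Serpinb3c and Serpinb3d, relatives of the squamous cell carcinoma antigens, had no read. The 2 tested basal or squamous epithelium markers of the 8 listed were both higher, and that list summed to 1.13 to 4.59 CPM in controls and 7.99 to 13.01 CPM with IL-33. The part of these cells in the Serpinb11 reads was not tested.

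In the chromosome 13 group 2 genes were higher, 3 lower and 1 was not called. Serpinb1a, the intracellular inhibitor of neutrophil elastase, proteinase-3 and cathepsin G (ENSMUSG00000044734, chr13:32842092-32851185), held 30.3, 14.1, 19.9, 23.9 and 18.2 CPM in controls. Its IL-33 libraries held 59.1, 40.8, 45.0, 42.6 and 44.8 CPM, all above the controls, and the log2 fold change was 1.11 ± 0.21. With the length and GC correction it was 0.68 and still called. Serpinb1a is known to be abundant in neutrophils, whose 8 markers rose as given above, and their part in its value was not tested. Its neighbour Serpinb1b (ENSMUSG00000051029) went from 1.95 ± 0.718 to 1.13 ± 0.276 CPM. The log2 fold change of Serpinb1b was -0.77 ± 0.27 with an adjusted p of 0.0272 (edgeR's quasi-likelihood test), and its call was lost without control library 1 or 5 or without IL-33 library 2 or 3 (adjusted p 0.0597 to 0.0795). Serpinb1c had 13 and 21 reads and was not tested.

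Serpinb9, the inhibitor of granzyme B that protects cytotoxic lymphocytes from their own granules (ENSMUSG00000045827, chr13:33003250-33017957), held 148.3, 129.6, 136.7, 140.3 and 136.7 CPM in controls. With IL-33 it held 123.8, 91.3, 113.6, 112.1 and 115.6 CPM, without overlap, and the log2 fold change was -0.31 ± 0.08. Its target granzyme B (Gzmb) was not called at 4.31 ± 2.57 and 3.40 ± 1.16 CPM, and of 7 cytotoxic lymphocyte markers 1 was lower and 6 were not called. Serpinb6b (ENSMUSG00000042842, chr13:32965209-32979067) was the most abundant clade B gene per kilobase, at 96.0, 102.6, 111.5, 109.0 and 105.9 CPM in controls and 75.5, 75.2, 79.0, 103.3 and 91.8 CPM with IL-33. IL-33 library 4 lay among the controls, and the log2 fold change was -0.30 ± 0.10. With the length and GC correction the falls of these genes were larger, -0.53 for Serpinb9, -0.76 for Serpinb6b and -1.30 for Serpinb1b.

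Serpinb6a, an intracellular inhibitor of cathepsin G (ENSMUSG00000060147, chr13:33917918-34002794), was the steadiest gene of the family, with a coefficient of variation of 2.0% in controls and 4.48% with IL-33. Its level of 126.0 ± 2.52 CPM in controls and 143.0 ± 6.40 CPM with IL-33 gave a log2 fold change of only 0.18 ± 0.03, yet the groups did not overlap. The call was lost when no low-count filter was used (adjusted p = 0.138 in edgeR's quasi-likelihood test), and 22.0% of its 75-base stretches are shared with overlapping genes, mainly Nqo2. Serpinb9b (ENSMUSG00000021403) was not called, at 3.09 ± 0.951 and 3.21 ± 1.17 CPM. Serpinb6c, Serpinb6d, Serpinb6e and Serpinb9d had 1 to 12 reads in all 10 libraries, and Serpinb1-ps1, Serpinb9c, Serpinb9e, Serpinb9f and Serpinb9g had none.

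Of the inhibitors of clotting and fibrinolytic proteases outside clades A and B, Serpine2, Serpind1 and Serpini1 were called higher. Serpine2, protease nexin-1, a cell-bound inhibitor of thrombin and of the plasminogen activators (ENSMUSG00000026249, chr1:79794197-79861180), held 82.7, 97.0, 90.9, 92.2 and 95.7 CPM in controls and 208.7, 231.1, 218.3, 163.5 and 186.4 CPM with IL-33. The groups were well apart, and the log2 fold change was 1.14 ± 0.10. Serpine3 had no read.

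Serpind1, heparin cofactor II, an inhibitor of thrombin (ENSMUSG00000022766, chr16:17331371-17343575), held 1.70, 2.19, 1.80, 1.84 and 1.33 CPM in controls and 3.45, 2.99, 2.59, 3.43 and 2.82 CPM with IL-33. The groups did not overlap and the log2 fold change was 0.80 ± 0.13, but with the length and GC correction it was 0.35 and not called (adjusted p = 0.102 in edgeR's quasi-likelihood test). Serpini1, neuroserpin, an inhibitor of tissue plasminogen activator (ENSMUSG00000027834, chr3:75557547-75643495), held 2.40, 2.30, 2.14, 2.10 and 3.13 CPM and then 4.05, 3.33, 3.76, 4.05 and 3.57 CPM, a log2 fold change of 0.63 ± 0.11 without overlap. Serpinc1, antithrombin, had 32 control and 42 IL-33 reads, Serpinf2, the inhibitor of plasmin, had 25 and 16, and Serpini2 had 1 and 0, and these 3 genes were not tested.

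The proteases, cofactors and receptors around these inhibitors moved in both directions, as did all tested genes, of which 35.1% were called higher and 34.8% lower. The counts of every gene list in this text stand beside those same shares. Of 24 listed genes of coagulation, fibrinolysis and the contact system 18 were tested, with 7 higher, 9 lower and 2 not called, and a median log2 fold change of -0.31. The genes that the naming rule picks are Kng1, F10 and Tfpi2. Kng1, which encodes kininogen, passed the low-count filter only through IL-33, with 1 control and 86 IL-33 reads, a ratio of 88.1 with an exact 95% interval of 15.4 to 3520 (counting error only). Without control library 3, which held that read, the bound for Kng1, set at 3 reads over the other controls, was at least 24.6-fold higher. F10, which encodes factor X, was at 2.53 ± 0.18 and Tfpi2, tissue factor pathway inhibitor 2, at 2.47 ± 0.18 on the log2 scale. Tissue plasminogen activator (Plat), a target of Serpine2 and Serpini1, was lower at -0.74 ± 0.19. Urokinase (Plau) and its receptor (Plaur) were not called. Lrp1 and Vldlr, receptors that clear complexes of serpin and protease, were lower at -0.82 ± 0.14 and -1.49 ± 0.16. The last 5 genes were named for their link to the family and not for their size.

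Serping1, C1 inhibitor, the serpin of the classical complement and contact proteases (ENSMUSG00000023224, chr2:84765387-84775444), was the most abundant member per kilobase in controls. It held 441.7, 454.2, 485.9, 471.8 and 443.7 CPM in controls and 320.4, 307.6, 304.1, 324.4 and 368.4 CPM with IL-33. No value overlapped, and the fall by 0.50 ± 0.06 on the log2 scale was 0.87 in size with the length and GC correction (-0.87). Of the 6 complement proteases listed, 3 were higher, 1 was lower and 2 were not called, with a median log2 fold change of 0.31. C1rb at 1.30 ± 0.17, C1s2 at 0.58 ± 0.09 and Masp2 at -0.51 ± 0.13 had the largest called changes, and C1s1 was not called.

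Both remaining genes tested lack the inhibitory function. Serpinh1, the collagen chaperone of the endoplasmic reticulum (ENSMUSG00000070436, chr7:99345376-99353239), held 241.3, 364.1, 395.2, 369.5 and 306.4 CPM in controls and 282.8, 425.7, 385.6, 424.4 and 373.3 CPM with IL-33. In each group library 1 was the lowest, the groups overlapped, and the log2 fold change of 0.17 ± 0.17 was not called (adjusted p = 0.278 in edgeR's quasi-likelihood test). Of 17 collagen-modifying enzymes 3 were higher, 6 lower and 8 not called, with Ppib at 0.97 ± 0.05, P4ha2 at -0.66 ± 0.17 and P3h3 at -0.59 ± 0.08, and a median log2 fold change of 0.01. Of 7 fibroblast markers the 3 collagens were higher and the other four lower (Dcn, Lum, Pdgfra and Pdgfrb), with a median log2 fold change of -0.44. The collagens dominate their sum of 2762 to 3461 CPM in controls and 3695 to 5280 CPM with IL-33. Serpinf1, pigment epithelium-derived factor, a secreted antiangiogenic protein (ENSMUSG00000000753, chr11:75409769-75422701), held 30.4, 41.8, 28.7, 25.03 and 34.2 CPM in controls and 19.7, 39.6, 26.98, 36.8 and 32.7 CPM with IL-33. Its log2 fold change of -0.04 ± 0.22 was not called.

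**Figure D5:**
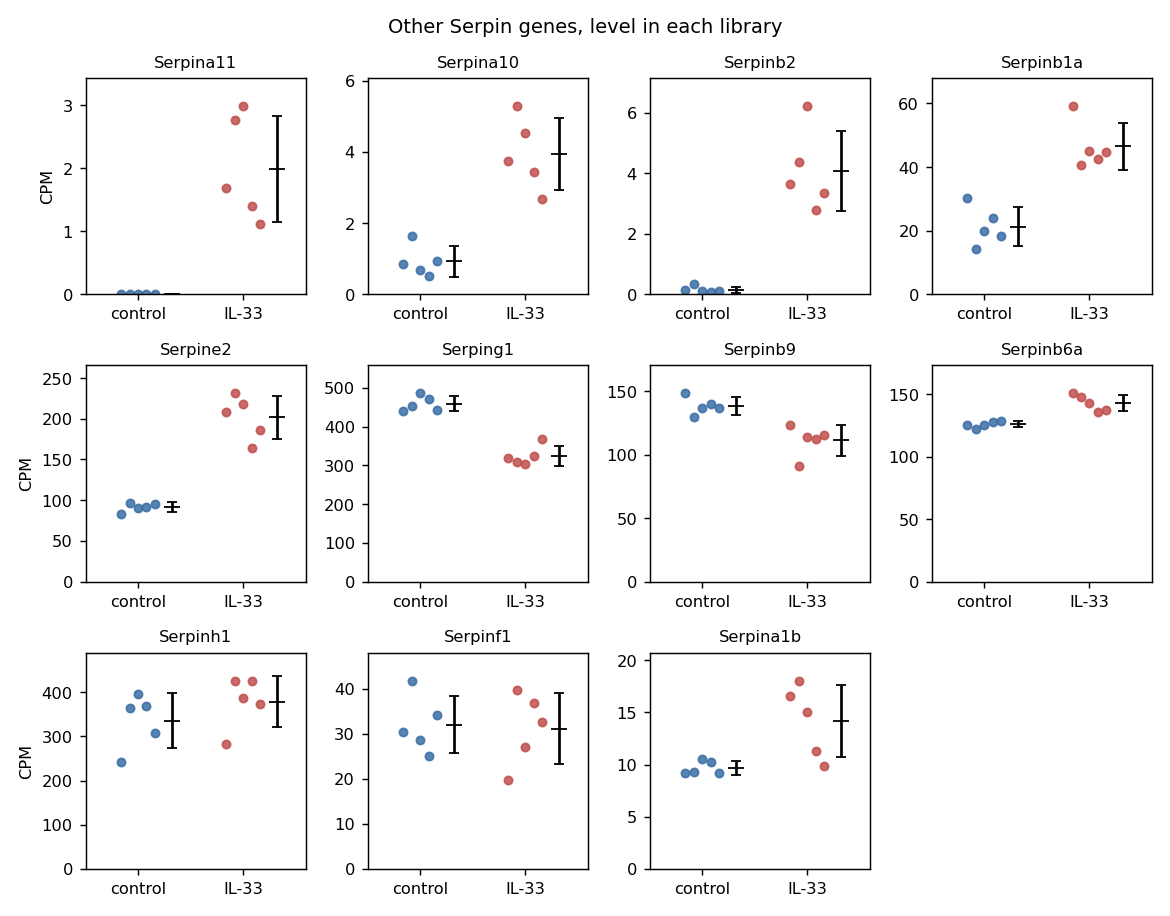
Level in CPM (vertical axes, each starting at 0) of 11 other Serpin genes in the 5 control (blue) and 5 IL-33 (red) libraries, with mean and SD beside each group. Serpina11 is at 0 in every control, Serpine2 and Serpinb1a are higher and Serping1 and Serpinb9 lower in every IL-33 library than in any control, and Serpinh1, Serpinf1 and Serpina1b overlap.

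The order of abundance within the family was rearranged. Per kilobase of exon, controls were led by Serping1 at 197.6 ± 8.18, Serpinh1 at 137.0 ± 25.3, Serpinb6b at 46.4 ± 2.67 and Serpinb9 at 39.6 ± 1.94 CPM per kb. Serpinb6a followed at 23.3 ± 0.467, Serpina3n at 18.3 ± 2.12 and Serpina3h at 18.2 ± 6.58 CPM per kb. The ranges of Serpinb6b and Serpinb9 overlapped, as did those of Serpina3n and Serpina3h, and the other neighbours among these 7 were apart. With IL-33, Serpina3n led at 217.0 ± 28.1, followed by Serpinh1 at 155.0 ± 23.9, Serping1 at 139.8 ± 11.1, Serpina3g at 110.2 ± 21.6 and Serpina3h at 71.6 ± 21.2 CPM per kb. Serpina3n was above Serpinh1 in all 5 IL-33 libraries, while the ranges of Serpinh1, Serping1, Serpina3g and Serpina3h each overlapped the next. The scarcest tested members with IL-33 were Serpinb10 at 0.315 ± 0.144 and Serpini1 at 0.515 ± 0.0427 CPM per kb.

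Other protease inhibitors, granule proteases, and epithelial and membrane serine proteases are given beside the family, and not all of these proteases are serpin targets. Of 22 listed inhibitors outside the serpins 15 were tested, with 9 higher, 2 lower and 4 not called, and a median log2 fold change of 0.38. The stefin Stfa2 at 4.71 ± 0.35, the cystatin Cst7 at 3.85 ± 0.46 and alpha2-macroglobulin (A2m) at 2.98 ± 0.55 had the largest changes. The standard error of Stfa2 is too small, since its control mean was 0.0746 CPM, under the 0.1 CPM added to each value. Of 14 listed granule proteases of neutrophils, mast cells and lymphocytes 8 were tested, with 4 higher, 1 lower and 3 not called, and a median of 0.34. The mast cell proteases Tpsab1 at 2.95 ± 0.28, Tpsb2 at 1.82 ± 0.37 and Cpa3 at 1.61 ± 0.19 rose most, and of 7 mast cell markers, which include these 3, 4 were higher, 1 was lower and 1 was not called. Neutrophil elastase (Elane), the classic target of alpha1-antitrypsin, had no read in controls and 0.262 ± 0.185 CPM with IL-33 and was not tested. Of 15 listed epithelial and membrane serine proteases 9 were tested, with 3 higher, 2 lower and 4 not called, a median of -0.07 and the largest changes in Klk1 at 1.74 ± 0.41, Htra1 at -1.06 ± 0.10 and Prss8 at -0.99 ± 0.15.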

How the data were processed

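RNA of 10 lungs, polyA-selected and made into strand-keeping libraries per the labels' protocols, was measured as reads per gene. The authors deposited raw counts per gene, 1 file per library, made with STAR 2.5.4b and HTSeq 0.9.1 on GRCm38 per the submitters' processing notes, which also name FastQC 0.11.6 and MultiQC 1.6. Annotation release, strand setting and read length are not stated in the sources at hand, so overlapping genes could share reads. Control libraries held 8935159 to 13767118 counted reads and IL-33 libraries 7805175 to 13178798, and 3 reads equal 0.218 to 0.384 CPM in 1 library. Entries naming no gene were left out (10.4% to 13.7% of records in no feature, 0.862% to 0.945% ambiguous, 15.0% to 22.8% aligned to several places).

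Groups came from the treatment label. The labels give 5 samples per group, and p-values measure the spread between them. No 2 libraries of a group agreed within sampling noise (chi-square per degree of freedom 5.44 to 30.0). The main test was edgeR 4.0.16 under R 4.3.3 on all 10 libraries, with treatment as the single model term, filterByExpr, TMM (factors 0.969 to 1.03), the quasi-likelihood test and Benjamini-Hochberg adjustment over all tested genes at 0.05. Standard errors were computed on log2(CPM + 0.1) across libraries, which makes them too small for genes whose controls lie near 0.1 CPM or below. The fit was tested on simulated counts. Of the 53465 genes, 53360 matched GENCODE M21, the source of symbols, positions, exonic lengths and loop sequences. Summed levels include untested members.

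The members, gene lists, alternatives and motifs were chosen with earlier results of these data known. Every tested member is named except 1, which is counted but not reported here. Values in every library are given for called members with a log2 change of at least 1 and 1 CPM, for the most abundant member of each clade and for a set of textbook members. Of each list other than the cell type markers, the 3 largest called changes at 1 CPM or more are given. Not every marker list is reported, and the markers named and other genes were chosen after their values were seen. Alternatives were DESeq2 1.42.0 size factors or its Wald test, library size alone, other low-count filters, limma-voom (limma 3.58.1), the replicate number as a block, scaling without the 50 most abundant genes, a length and GC correction, an adjusted p of 0.01, a test against a 1.5-fold change and leaving out each library. Python 3.11.15 with pandas 2.3.3 and matplotlib 3.10.9 gave summaries and plots.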

Additional observations from a re-analysis of the deposited data

Results flagged for a closer look

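Of 53 groups of 5 libraries, the control and IL-33 groups of the 27 tested members without the controls of Serpina11, which are all at 0, 3 had a library far from the others by Dixon's test at the 95% level, where chance gives about 1 in 20. Serpinb2 was at 0.328 CPM in control library 2 and at 0.0875 to 0.141 CPM in the other controls, values that rest on 8 control reads in all. Serpinb1a was at 59.1 CPM in IL-33 library 1 and at 40.8 to 45.0 CPM in the other IL-33 libraries. Without single libraries the log2 fold change of Serpinb2 ran from 4.47 to 5.02 and that of Serpinb1a from 0.98 to 1.27, and both stayed called. Serpinb10 was at 4.24 CPM in control library 1 and at 0.70 to 1.69 CPM in the other controls, and it was not called with or without that library.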

How the results depend on the processing

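Of 567 values of single members under the alternatives, 547 kept their side of the threshold, 19 lost their call and 1 gained one. The sign changed in 8 values of 4 members, all of them not called (Serpinf1, Serpinb9b, Serpinb10 and Serpinh1), and in 0 values of called members. The number of members higher was 17 under most settings, 15 with the length and GC correction, 13 in the test against a 1.5-fold change and 18 without the low-count filter. The number lower was 0 in the test against a 1.5-fold change, 4 at an adjusted p of 0.01 and 7 without the low-count filter. The median log2 fold change was 0.55 without the low-count filter, where 54 members entered. Without single libraries the number higher stayed at 17, the number lower was 5 or 6 and the median ran from 0.73 to 0.86. Serpinb1b was the called member that single libraries decided. Same-numbered libraries did not deviate together (correlations -0.07 to 0.23, and 1 of 5 controls correlated best with its own number), so the numbers were not taken as pairs. With the replicate block 18 members were higher, 6 lower and the median was 0.81, and the gain was Serpinh1 at 0.18 (adjusted p = 0.0433 in edgeR's quasi-likelihood test). Not called, Serpinh1 was at -0.13 with the length and GC correction. Depth limits the 41 untested members, whose levels lie near that of a few reads.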
